A study of Mus musculus with 2 samples.

Results

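The natriuretic peptide system of the mouse is encoded by 3 ligand genes (Nppa, Nppb and Nppc) and 3 receptor genes (Npr1, Npr2 and Npr3). These 6 genes were taken by symbol from a table of 29383 genes, and each symbol had 1 gene model. Their transcripts were counted by RNA sequencing of the ventricular tip (apex) of E12.5 mouse embryo hearts. The mutant group carried the Cre driver Nkx2-5cre and 2 floxed copies of Ezh2 (Ezh2f/f). The heterozygous control group carried the same driver and 1 floxed copy (Ezh2f/+), so recombination of Ezh2 was possible in both groups. Ezh2 is the methyltransferase of Polycomb repressive complex 2, which marks histone H3 at silenced genes, and Nkx2-5 is active in the heart lineage. Tissue of 8 hearts was combined into 1 library per genotype. No spread between animals can be had from such pools, no difference here has a replicate check, and no p-value was computed.

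The 3 ligand genes encode the precursors of atrial (Nppa), B-type (Nppb) and C-type (Nppc) natriuretic peptide. Npr1 and Npr2 encode receptors that carry their own guanylyl cyclase and make cyclic GMP: Npr1 answers to the atrial and B-type peptides and Npr2 to the C-type peptide. Npr3 encodes the clearance receptor, which binds all of these peptides and has no cyclase domain. In the embryonic heart Nppa marks the working myocardium of the atria and of the ventricular trabeculae and is low in compact myocardium, Nppb is active in chamber myocardium as well, and Npr3 is a marker of the endocardium.

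The libraries held 14122579 reads in the mutant and 13944617 in the heterozygote. Reads were scaled with TMM, a trimmed mean of log ratios, to counts per 1e6 reads (CPM), which are not corrected for gene length. Ezh2 itself had 319 reads in the mutant library and 493 in the heterozygote library, a mutant-to-heterozygote ratio of 0.601 (0.521 to 0.694). Intervals are 95% intervals of counting error alone, exact unless called Wilson, and reads that carry no molecular identifier can be copies of 1 molecule. The labels call the cells cardiomyocytes and name no sort. Markers of other cells were present, with 11 of 11 endothelial and endocardial genes, 8 of 8 epicardial genes and 7 of 7 mesenchymal genes above 0 reads in both libraries.

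Nppa and Nppb lie side by side on chromosome 4 on the same strand. Their promoters are shown because the neighbouring genes differed unlike each other between the libraries. The 250 bases before the RefSeq start of each gene were read from the plus strand of GRCm38.p6, at chr4:148000472-148000721 for Nppa and chr4:147985650-147985899 for Nppb. Capitals mark every match, on either strand, to 6 motifs of cardiac promoters.
Nppa: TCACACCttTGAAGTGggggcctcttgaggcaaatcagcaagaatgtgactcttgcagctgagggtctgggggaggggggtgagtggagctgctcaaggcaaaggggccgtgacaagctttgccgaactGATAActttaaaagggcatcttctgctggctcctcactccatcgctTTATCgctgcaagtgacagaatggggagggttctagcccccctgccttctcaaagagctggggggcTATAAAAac
Nppb: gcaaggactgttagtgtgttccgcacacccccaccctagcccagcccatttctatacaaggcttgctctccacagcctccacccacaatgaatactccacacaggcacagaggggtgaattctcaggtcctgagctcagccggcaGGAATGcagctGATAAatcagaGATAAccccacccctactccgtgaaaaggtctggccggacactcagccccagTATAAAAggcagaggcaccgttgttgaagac

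The Nppa window opens at position -250 with TCACACC, a binding site of T-box factors, and holds TNAAGTG, the site of Nkx2-5, at position -241. Neither motif occurs in the Nppb window, and TCACACC occurs in 3.33% and TNAAGTG in 10.1% of 32851 windows of the same length before RefSeq starts. Both windows hold 2 copies of GATAA, the core of GATA factor sites, which 22.6% of all windows hold at least once. These lie at -121 and -75 (the second on the minus strand) in Nppa and at -94 and -83 in Nppb. Nppb alone of this pair has CATTCC, the site of TEAD factors, at -105 on the minus strand (12.6% of windows). TATAAAA was found at -9 in Nppa and -31 in Nppb (4.98% of windows). The starts thus lie at unlike distances from TATAAAA, and TCACACC and TNAAGTG lie at the far edge of the Nppa window. Whether a window of this length holds them therefore depends on the start used, and bases before the windows were not read. The CArG box of serum response factor had no match in either window (1.47% of windows), and sites that depart from a motif were not counted. None of the 6 motifs occurs in the windows of Nppc, Npr1, Npr2 or Npr3. A match describes the letters and does not show that a factor binds there.

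Of the 6 genes, 5 reached 1 CPM in a library, the level from which sizes of difference were counted. Differences were counted on a log2 scale after 1 CPM was added to both levels, which understates them for genes with few reads. On that scale Npr2, 1 of the 5, passed 1.5-fold upward in the mutant, a size reached by 3.45% of 16185 genes. Also 1 of the 5, Nppb, was at least 1.5-fold lower, a size reached by 1.88% of genes. Over all genes this was 559 upward and 305 downward, or 788 and 190 when library totals were used for scaling. None of the 5 was 2-fold apart, as 0.605% of genes were upward and 0.173% downward. Nppa, Npr1 and Npr3 lay within 1.5-fold.

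**Figure D1:**
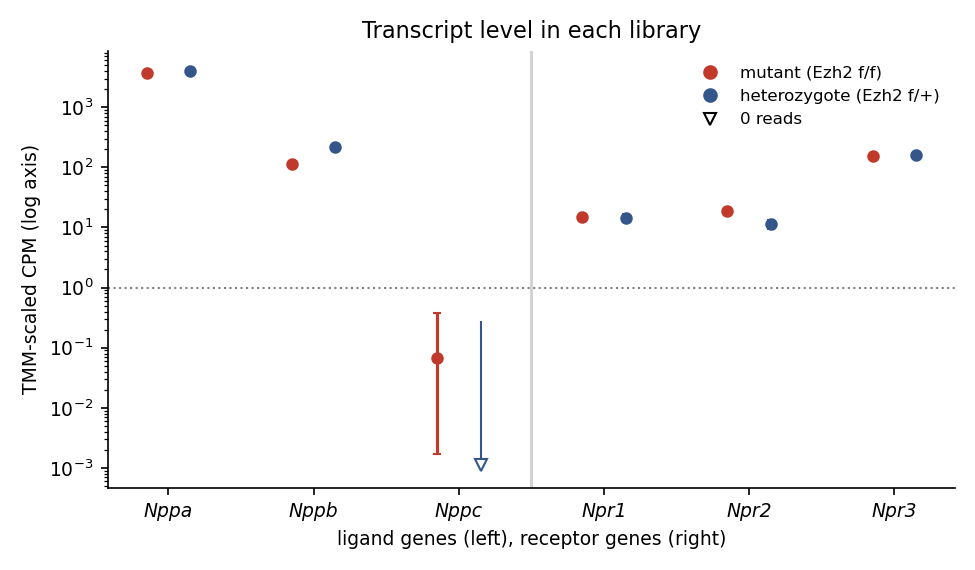
Level of each gene in the mutant (red, left) and heterozygote (blue, right) library, in TMM-scaled CPM on a log axis, with 95% exact Poisson intervals, mostly smaller than the points; the dotted line is 1 CPM and the open triangle marks 0 reads. Nppa stands far above the rest, Nppc falls under 1 CPM in both libraries, and the points of a gene part visibly for Nppb and Npr2.

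Levels of different genes were set side by side per kilobase of the longest GENCODE transcript, as scaled CPM per kilobase. Nppa led with 4284 in the mutant and 4658 in the heterozygote, followed by Nppb with 147 in the mutant and 276 in the heterozygote and by Npr3 with 22.4 in the mutant and 23.2 in the heterozygote. At the lower end the order of the cyclase receptors differed between the libraries. In the mutant Npr2 had 5.05 (4.46 to 5.69) and Npr1 3.62 (3.15 to 4.13), and these intervals do not overlap. In the heterozygote Npr2 had 3.09 (2.62 to 3.62) and Npr1 3.55 (3.07 to 4.08), with overlapping intervals. The clearance receptor was therefore the most abundant receptor transcript per length in both libraries.

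Among the ligands, Nppb had the larger fold. Nppb (chromosome 4, 147360008 to 147361307) had 1667 reads (1588 to 1749) in the mutant and 2920 reads (2815 to 3028) in the heterozygote. Its scaled level was 115 CPM in the mutant and 216 CPM in the heterozygote, which gives a ratio of 0.530 (0.499 to 0.564), or -0.91 in log2. Only 44 of the 16185 genes had a lower log2 ratio, a rank not corrected for the trend with GC content and transcript length. After removal of that trend the ratio of Nppb was 0.630 (0.593 to 0.669), or -0.66 in log2. Among the 1828 genes that reached 100 CPM in either library, a level chosen after the values of Nppb were seen, 1.04% were at least 1.5-fold lower and 6 had a lower log2 ratio than Nppb.

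Nppa (chromosome 4, 147374855 to 147376176) was among the most heavily read transcripts, with 53945 reads (53491 to 54402) in the mutant and 54508 (54051 to 54968) in the heterozygote. It took 0.382% of reads in the mutant (Wilson 95% interval 0.379 to 0.385) and 0.391% in the heterozygote (0.388 to 0.394), and ranked 21st by reads in both. Its ratio was 0.920 (0.909 to 0.931), with 5241 genes at a lower log2 ratio. At this depth the counting interval is narrow. The log2 ratio of -0.12 is close in size to the shift of 0.09 on the log2 scale between TMM and library totals, and with library totals the ratio was 0.977.

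Because both genes are read in the same libraries, their quotient is free of library scaling. There were 32.4 Nppa reads for each Nppb read in the mutant and 18.7 in the heterozygote. The Nppb-to-Nppa ratio in the mutant was thus 0.577 (0.542 to 0.614) of that in the heterozygote. Within the ligand reads, Nppa made up 97.0% (Wilson 96.9 to 97.1) in the mutant and 94.9% (94.7 to 95.1) in the heterozygote, while Nppb made up 2.998% (2.86 to 3.14) in the mutant and 5.08% (4.91 to 5.27) in the heterozygote. Summed over the 3 ligands, scaled levels were 3820 CPM in the mutant and 4245 CPM in the heterozygote, a ratio of 0.8998 (0.889 to 0.910). In bulk tissue, fewer cells of a type and less RNA per cell cannot be told apart.

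Nppc (chromosome 1, 88562866 to 88567147) was at the limit of detection, with 1 read in the mutant (0.0253 to 5.57) and 0 in the heterozygote. For a count of 0 a floor of 3 reads, or 0.222 CPM, was set, and the exact upper limit was 3.69 reads (0.273 CPM), so no fold is given. The transcript of the C-type peptide, the ligand of Npr2, was therefore not measurable at this depth in either library, while Npr2 itself was.

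**Figure D2:**
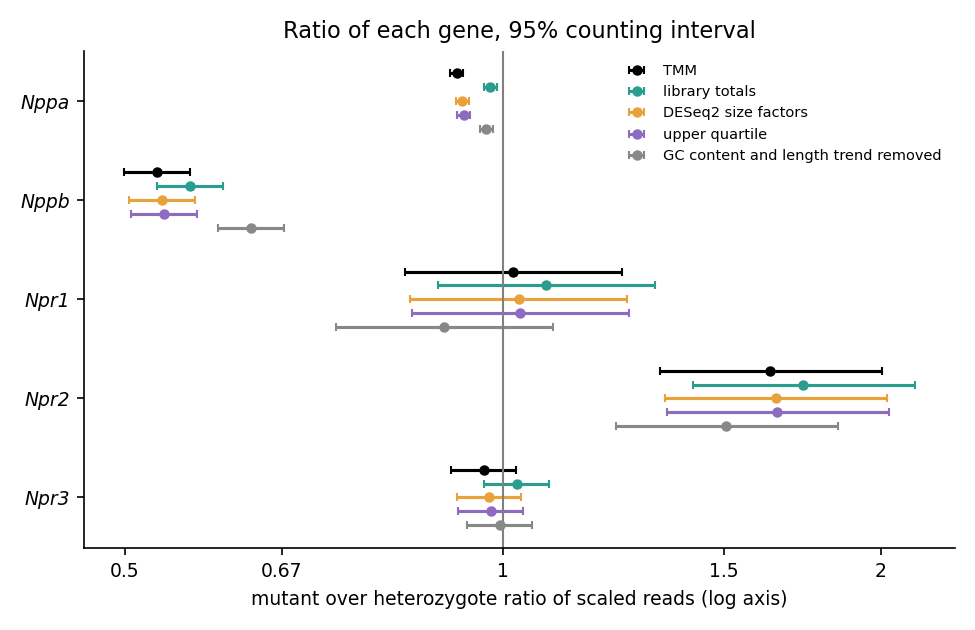
Mutant-to-heterozygote ratio of scaled reads (log axis) of the 5 genes with at least 1 CPM, with 95% counting intervals, under TMM, 3 other scalings and after removal of a trend with GC content and transcript length. Nppb lies left of 1 and Npr2 right of 1 with their whole interval under all 5 settings, and Npr1 and Npr3 span 1 in each.

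Among the receptors, Npr2 was higher in the mutant. Npr2 (chromosome 4, 43644807 to 43664112) had 269 reads (238 to 303) in the mutant and 153 (130 to 179) in the heterozygote. Scaled levels were 18.5 CPM in the mutant and 11.3 CPM in the heterozygote, which gives a ratio of 1.63 (1.33 to 2.01), or 0.66 in log2, with 387 genes higher than that. The gene model of Spag8 begins 0.089 kb beyond the end of Npr2 on the opposite strand and had 1 read in the mutant and 9 in the heterozygote. Npr2 no longer passed 1.5-fold after removal of the trend with GC content and length (log2 ratio 0.54) or with 5 CPM added (0.53) on the scale used for counting. Its plain ratio after removal of the trend was 1.51 (1.23 to 1.85).

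Npr1 (chromosome 3, 90254514 to 90269788) had 214 reads in the mutant and 195 in the heterozygote. Its scaled level was 14.7 CPM in the mutant and 14.4 CPM in the heterozygote, a ratio of 1.02 (0.836 to 1.24), or 0.898 after removal of the GC and length trend. Npr3 (chromosome 15, 11769652 to 11837042) had 2244 reads in the mutant and 2159 in the heterozygote. Its scaled level was 154 CPM in the mutant and 160 CPM in the heterozygote, a ratio of 0.966 (0.910 to 1.03), or 1.03 with library totals. An unnamed model on the opposite strand inside Npr3 had 35 reads in each library, too few to move the value of Npr3.

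Relative to its cyclase relative, Npr2 was also higher without any scaling: the Npr2-to-Npr1 ratio in the mutant was 1.60 (1.20 to 2.14) times that in the heterozygote. Relative to Npr3 the factor was 1.69 (1.37 to 2.10), whereas Npr1 relative to Npr3 gave 1.06 (0.858 to 1.30). Summed receptor levels were 187 CPM in the mutant and 185 CPM in the heterozygote, a ratio of 1.01 (0.957 to 1.07). Of all receptor reads Npr3 made up 82.3% (80.8 to 83.7) in the mutant and 86.1% (84.7 to 87.4) in the heterozygote, while Npr2 made up 9.86% (8.80 to 11.0) in the mutant and 6.10% (5.23 to 7.11) in the heterozygote. Per transcript length the share of Npr3 was 72.1% in the mutant and 77.7% in the heterozygote.

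**Figure D3:**
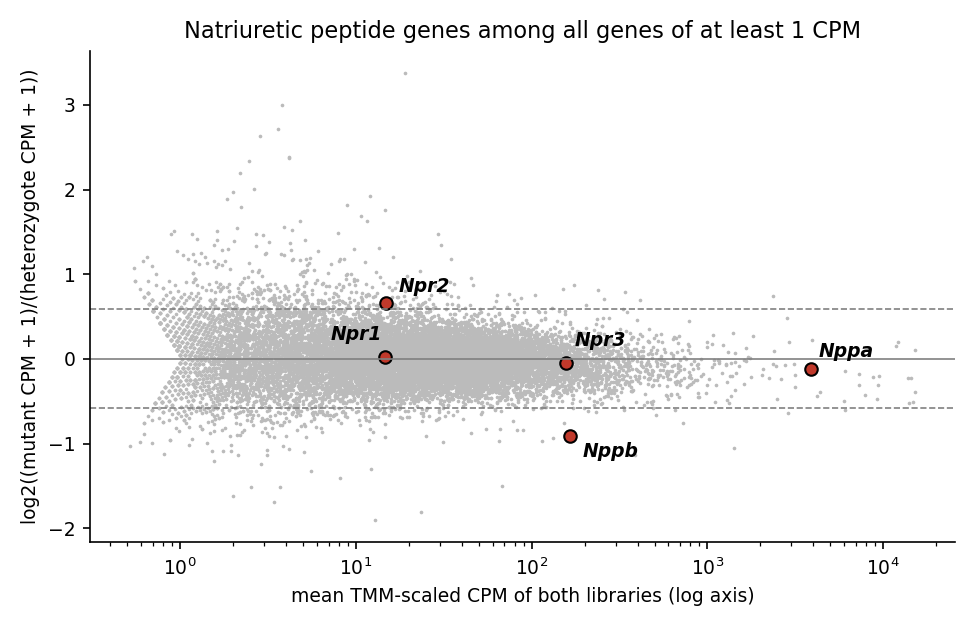
Each grey point is a gene that reached 1 CPM in either library; the x axis is its mean scaled CPM (log axis) and the y axis the log2 ratio of mutant to heterozygote after adding 1 CPM to each, with dashed lines at 1.5-fold. Nppb, at -0.91, lies below nearly all genes of its level, Npr2 at 0.66 lies at the upper edge, and Nppa, Npr1 and Npr3 lie within the bulk.

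The size of the Nppb difference was not shared by the genes around it. The end of Nppb and the start of Nppa are 13.5 kb apart in the files' coordinates. On the far side of Nppb, 2510039O18Rik had a ratio of 1.12, the collagen-modifying enzyme gene Plod1 1.16 and the mitochondrial fusion gene Mfn2 0.996. Beyond Nppa, the chloride transporter gene Clcn6, 4.42 kb away, had 1.04 and Agtrap, which encodes an angiotensin receptor-associated protein, 1.28. Nppb was thus the only one of these 7 genes at least 1.5-fold apart. Over the 3 nearest genes named by a symbol on either side of all 6 members, 26 of 30 neighbours reached 1 CPM. Of these 26, 0 were at least 1.5-fold apart, with log2 ratios between -0.46 and 0.35. Few genes of any kind pass this size: over all genes 3.45% were higher and 1.88% lower. The locus of Cops7b was counted under the spelling COPS7b as well, and Spag8, under 1 CPM, was not counted.

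**Figure D4:**
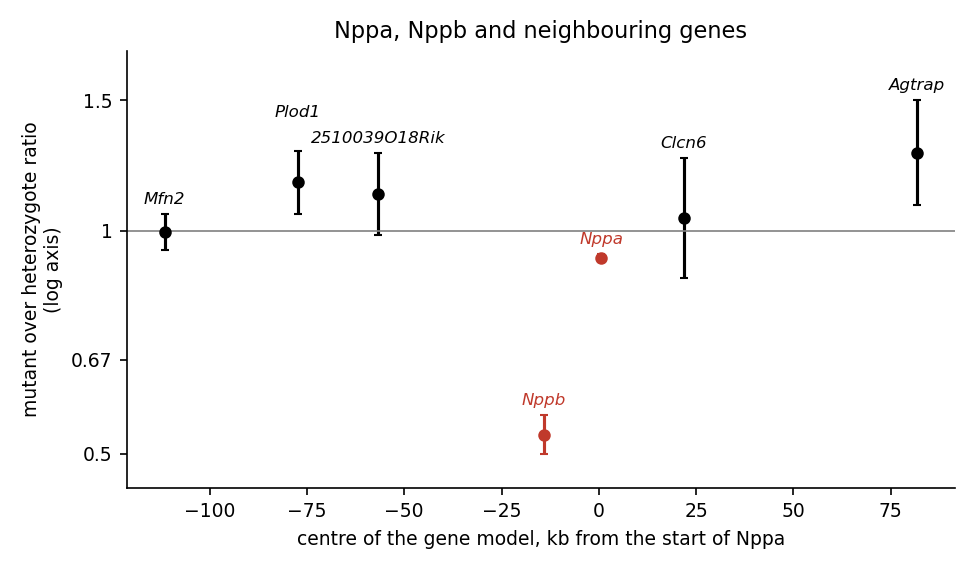
Mutant-to-heterozygote ratio of scaled reads (log axis) with 95% counting intervals, against the distance of each gene model's centre from the start of Nppa. Nppb, at 0.530, sits apart from the other 6 genes shown, which range from 0.920 for Nppa to 1.28 for Agtrap.

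Genes that process and degrade the peptides were compared next. Of 6 such genes, all at or above 1 CPM, 1 passed 1.5-fold upward (3.45% of all genes) and 0 downward (1.88%), with a median log2 ratio of 0.17 against -0.0079 over all 16185 genes. The gene past that size was Furin, a convertase that cuts the B-type and C-type precursors, with 2286 reads in the mutant and 1393 in the heterozygote (ratio 1.52, 1.43 to 1.63); its log2 ratio went from 0.60 to 0.42 when the trend with GC content was removed. Corin, which cuts the precursor of the atrial peptide, had 610 reads in the mutant and 818 in the heterozygote, a ratio of 0.693 (0.623 to 0.770) that stayed inside 1.5-fold and was singled out after its value was seen.

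Of 11 other guanylyl cyclases and their peptides, 3 reached 1 CPM. Of these, 0 were 1.5-fold higher (3.45% of all genes) and 0 lower (1.88%), with a median of 0.06 that was -0.13 with a floor of 5 CPM. The 3 were subunits of the soluble, nitric oxide-activated enzyme. Gucy1a3 had a ratio of 1.04 (0.960 to 1.13) and Gucy1b3 0.793 (0.713 to 0.882). The other 8 had at most 4 reads in a library, so that Npr1 and Npr2 were the only membrane guanylyl cyclases with more than 4 reads.

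Downstream of cyclic GMP, phosphodiesterases went both ways. Of 13 cyclic GMP effectors and phosphodiesterases, 12 reached 1 CPM, 2 passed 1.5-fold upward (3.45% of all genes) and 2 downward (1.88%), with a median of 0.09. Pde3a, whose enzyme degrades cyclic AMP and is inhibited by cyclic GMP, had 610 reads in the mutant and 327 in the heterozygote (ratio 1.73, 1.51 to 1.99). Pde2a, whose enzyme is stimulated by cyclic GMP, had 96 reads in the mutant and 147 in the heterozygote (0.607, 0.464 to 0.790). The calmodulin-dependent phosphodiesterase genes parted, with Pde1b at 69 reads in the mutant and 37 in the heterozygote (1.73, 1.15 to 2.66) and Pde1c at 143 reads in the mutant and 265 in the heterozygote (0.501, 0.406 to 0.617). Pde1b passed 1.5-fold neither with 5 CPM added (log2 ratio 0.33) nor after removal of the GC trend (0.51). Pde2a missed it with 5 CPM added (-0.45) and with library totals (-0.57). The cyclic GMP-dependent kinase gene Prkg1 and the phosphodiesterase gene Pde5a, chosen with their values known, had ratios of 1.09 (0.958 to 1.24) for Prkg1 and 0.972 (0.716 to 1.32) for Pde5a.

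**Figure D5:**
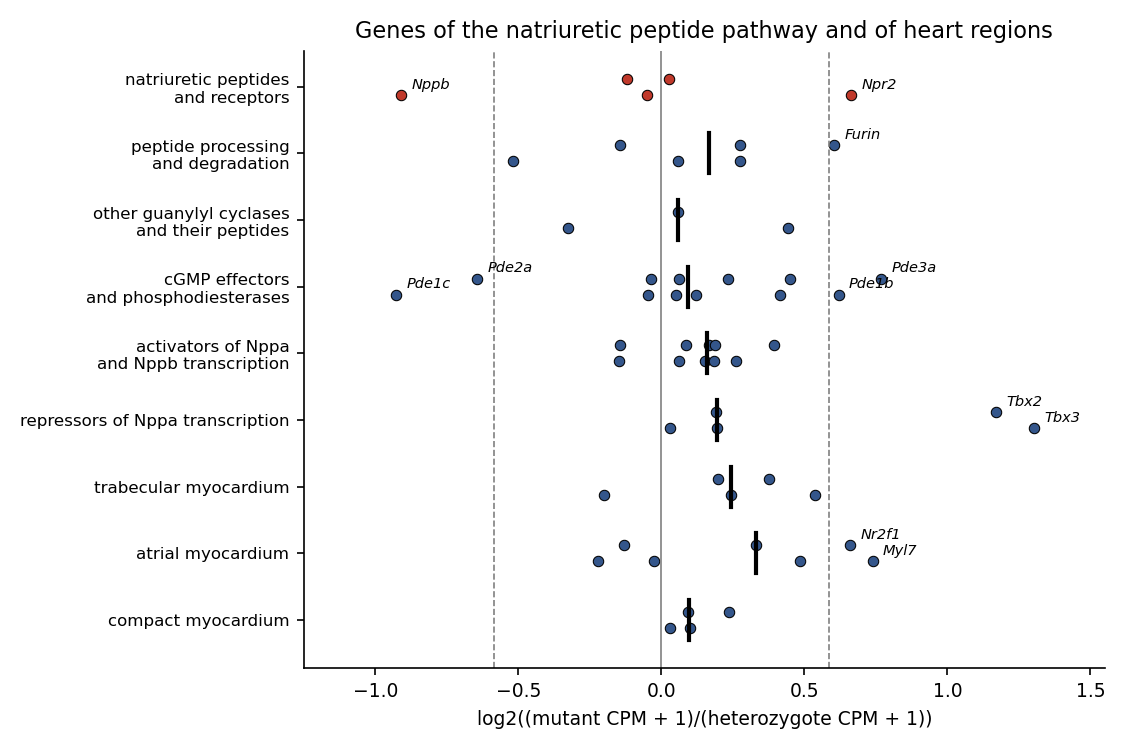
Log2 ratio of mutant to heterozygote, after adding 1 CPM to each level, of the natriuretic peptide genes (red) and of the pathway and region lists (blue), genes with at least 1 CPM only; black bars are list medians, dashed lines 1.5-fold, and genes past them are named. Nppb and Npr2 lie on opposite sides, the activators cluster between -0.15 and 0.40, and Tbx2 and Tbx3 stand alone beyond 1.

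Transcription factors known to act on the Nppa and Nppb promoters were counted as activators and repressors. Of 10 known activators, all at or above 1 CPM, 0 were 1.5-fold higher (3.45% of all genes) and 0 lower (1.88%), which is near those shares. Their median log2 ratio was 0.16, or -0.02 after removal of the GC trend. Gata4 had a ratio of 1.12 (1.07 to 1.18) and Tbx20 1.20 (1.15 to 1.26). Of the 10 activators 8 had a log2 ratio above 0. Below 1 were Mef2c (0.901, 0.831 to 0.978) and Srf (0.905, 0.844 to 0.969), named after their values were seen. Of 5 known repressors of Nppa, with a median log2 ratio of 0.19, 0 were 2-fold lower (0.173% of all genes). At least 2-fold higher were 2 of the 5, as were 0.605% of all genes. These were Tbx2 and Tbx3, T-box factors known to bind TCACACC, the letters at the left end of the Nppa window. Tbx2 had 103 reads in the mutant and 35 in the heterozygote (2.73, 1.85 to 4.14), and Tbx3 had 287 in the mutant and 100 in the heterozygote (2.67, 2.12 to 3.38). With 5 CPM added both were under 2-fold (log2 ratio 0.67 for Tbx2 and 0.996 for Tbx3), and after removal of the GC trend Tbx2 was (0.86). Of the activators, Tbx20 and Tbx5 are T-box factors too, with Tbx5, named after its value was seen, at 1.32 (1.20 to 1.46). Nppa had the ratio of 0.920 given above, and action of any of these factors on it was not tested.

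Other genes of the regions where Nppa is active were not lower as groups. Of 5 trabecular genes 0 were 1.5-fold higher (3.45% of all genes) and 0 lower (1.88%), which is near those shares. Of the 5 genes 4 had a log2 ratio above 0, with a median of 0.24. Gja5, a connexin gene, had a ratio of 1.15 (1.09 to 1.21) and Cited1, a transcriptional cofactor gene, 1.18 (1.14 to 1.22). The 1 trabecular gene below 0 was the growth factor gene Bmp10, named after its value was seen, with a ratio of 0.869. Of 8 atrial genes 7 reached 1 CPM, 2 passed 1.5-fold upward (3.45% of all genes) and 0 downward (1.88%), with a median of 0.33, or 0.15 with no floor or a floor of 5 CPM. The gene under 1 CPM was Sln, with 5 reads in the mutant and 8 in the heterozygote. The tissue was the ventricular tip, so these values do not describe atrial tissue. Of the 7 genes 4 had a log2 ratio above 0, and Myl4 (0.857), Pam (0.912) and Nr2f2 (0.981) had ratios below 1. The 2 past 1.5-fold were the light chain gene Myl7, with 43110 reads in the mutant and 24006 in the heterozygote (1.67, 1.64 to 1.70), and the nuclear receptor gene Nr2f1, with 68 reads in the mutant and 35 in the heterozygote (1.81, 1.18 to 2.80). Nr2f1 missed 1.5-fold with 5 CPM added (log2 ratio 0.35) and after removal of the GC trend (0.44). Of 4 compact myocardium genes 0 were 1.5-fold higher (3.45% of all genes) and 0 lower (1.88%), again near those shares. Their median was 0.10, with Ccnd1 at 1.07 (1.004 to 1.14) and Ccnd2 at 1.18 (1.15 to 1.22).

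Cell type markers gave the setting of these values. The 10 cardiomyocyte markers, all above 0 reads, summed to 49001 CPM in the mutant and 50626 CPM in the heterozygote, a ratio of 0.968 beside 0.530 for Nppb and 0.920 for Nppa. The largest terms of this sum, Myl2 (0.858) and Myh7 (1.15), went opposite ways. Single markers ran from 0.858 for Myl2 to 1.40 for Myh6, and 4 of 10 had a log2 ratio above 0. The 11 endothelial and endocardial markers summed to 1066 CPM in the mutant and 1092 CPM in the heterozygote, a ratio of 0.976 beside 0.966 for Npr3. Npr3 is known to be active in the endocardium, which the sum of this list does not separate from other endothelium. Single markers of the list ran from 0.740 for Cldn5 to 1.29 for Nfatc1, and 4 of 11 had a log2 ratio above 0. The 8 epicardial markers had a ratio of sums of 1.02 and the 7 mesenchymal markers 0.997, beside 1.63 for Npr2. Within the mesenchymal list Sox9 (1.58) and Twist1 (1.803) were at least 1.5-fold higher and Dcn (0.639) at least 1.5-fold lower. Smooth muscle and pericyte markers had a ratio of sums of 0.914, leukocyte markers 0.805 and erythroid markers 0.676. At least 1.5-fold lower were 3 of 7 smooth muscle and pericyte markers and 3 of 7 erythroid markers, against 1.88% of all genes (3.45% were higher). Of the former, Rgs5 had 7 reads in the mutant and 48 in the heterozygote, and Myh11 13 in the mutant and 25 in the heterozygote. In the same list 2 of 7, Tagln (1.47) and Cspg4 (1.32), had ratios above 1. The part of all these cell types in the values of Nppb and Npr2 was not tested.

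Over these 2 libraries the genes most like each member in level, in the plane of log2 CPM in both libraries, were Myoz2 and Psmc6 for Nppb and mKIAA0876 and Ptgis for Npr2. Myoz2, a Z-disc gene, had 1660 reads in the mutant and 2608 in the heterozygote, a distance of 0.163 from Nppb. Ptgis, the prostacyclin synthase gene, had 266 reads in the mutant and 148 in the heterozygote, a distance of 0.0506 from Npr2. The nearest were Ttn and mt-Co3 for Nppa, at distances of 0.241 and 0.276, Mmp23 and Atf1 for Npr1, and Tmed10 and Arf4 for Npr3. CPM of different genes also reflect their lengths, and with 2 points per gene this likeness describes level and ratio only.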

How the data were processed

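The authors deposited whole-number read counts per gene model for both libraries, and CPM, counts per 1e6 reads of each library's total, per the file headers; CPM recomputed from the counts differed by at most 4.91e-11. The deposited ratio of heterozygote to mutant CPM and the deposited p-value, whose test no header names, were not used. The aligner, read counter, genome build and handling of strand are not stated in the sources at hand. Coordinates are the files', with 1 added to starts, since end minus start equalled the RefSeq gene length for 3123 of 15557 genes and end minus start plus 1 for 259. On chromosome 1 they reach 197002909, past the last GRCm38 RefSeq gene end at 195291439, so promoters (GRCm38.p6, RefSeq) were joined by symbol, for 6 of 6 members.

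Rows of one symbol were summed (29595 models, 29383 genes) and scaled with TMM in edgeR 4.0.16 under R 4.3.3, with factors of 1.03 for the mutant and 0.970 for the heterozygote. The plain ratio of scaled reads has an exact conditional Poisson 95% interval. The interval method was checked on counts simulated with counting error only, the error it assumes. That check cannot cover spread between animals or copied reads. Sizes were counted at 1.5-fold and 2-fold on log2(CPM + 1) among genes of at least 1 CPM in a library. Alternatives were library totals, DESeq2 1.42.0 size factors, upper quartile, pseudocounts of 0.1 and 5 CPM, no floor, floors of 5 and 100 CPM (the last chosen after seeing the data), and removal of a second-order trend on GC content and logged length of the longest GENCODE M21 transcript. The trend was fitted at a mean of at least 5 CPM, and 81.8% of tested genes had a value. GC content and log2 ratio had a Spearman rho of 0.44 across genes; genes are no independent replicates. Members and lists were chosen with earlier results of these data known. Named genes are the members, Ezh2, up to 4 genes of a list at least 1.5-fold apart or else its 2 highest, the 3 nearest neighbours on either side and the 2 nearest genes by level. Corin, Prkg1, Pde5a, Tbx5, Mef2c, Srf, Bmp10, Sln, Myl4, Pam, Nr2f2 and the single cell type markers were named after their values were seen. Of 121 list entries, 119 matched the table; Hba-a1 and Ahsp were not analysed here. Of the neighbours, 1 is not reported here, and counts include it.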

Additional observations from a re-analysis of the deposited data

How the results depend on the processing

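Nppb stayed at least 1.5-fold lower under every alternative run, and the sign of Nppa was kept. Scaling by library totals gave ratios of 0.977 for Nppa, 0.564 for Nppb and 1.03 for Npr3, upper-quartile scaling 0.931 for Nppa, and removal of the GC and length trend 0.970 for Nppa and 0.630 for Nppb. Npr2 passed 1.5-fold except with 5 CPM added, after the trend was removed (on the scale used for counting) and with a floor of 100 CPM, under which it lay. Counts of genes moved more. With 0.1 CPM added, 312 genes were at least 2-fold higher and 143 lower (993 and 573 at 1.5-fold), and with 5 CPM added 14 and 6 (121 and 50). A floor of 5 CPM left 50 and 14 (279 and 159), and one of 100 CPM, by construction with fewer genes, 0 and 4 (13 and 19). At 1.5-fold, 788 genes were higher and 190 lower with library totals, and 351 were higher and 159 lower after the trend was removed, over fewer genes. The median of other guanylyl cyclases was -0.13 with a floor of 5 CPM, that of the activators -0.017 after the trend was removed, and that of trabecular genes 0.33 with library totals and 0.12 after the trend was removed. Per kilobase of transcript Nppa made up 96.7% of ligand reads in the mutant and 94.4% in the heterozygote, and Npr3 72.1% of receptor reads in the mutant and 77.7% in the heterozygote. Beyond the fewer genes named, the cause of these shifts was not tested. No paired analysis was possible because each genotype has 1 library, and for the same reason none could be left out.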
